A study of Rattus norvegicus with 20 samples.

Results

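TOTM, tris(2-ethylhexyl) trimellitate, is a plasticizer used in place of DEHP, di(2-ethylhexyl) phthalate, and the 2 were compared here by the genes they left higher or lower in the testis of the exposed rat foetus. The comparison rests on 8 of the 20 arrays of the series, chosen by their labels: 4 of TOTM and 4 of DEHP. Both groups were Han Wistar foetuses whose dams received the compound by oral gavage at 500 mg/kg on gestation days 12 to 19. The 4 Control arrays, from dams given the corn oil vehicle, supply part of the estimate of the spread and a level to set beside each gene. The doses were equal by mass, so they were not equal by mole. Each array held RNA of testes pooled from several pups of a litter, and the labels do not say outright that the 4 arrays of a group came from 4 litters, so the p-values measure the spread between these pools.

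DEHP is a diester of phthalic acid with 2-ethylhexanol, and TOTM carries an additional ester of the same alcohol on its benzene ring. In rats, phthalates of this kind are known for lowering androgen production in the foetal testis during the period in which the male tract forms. Foetal Leydig cells make androgens from cholesterol, which they synthesise through the mevalonate and sterol pathways or take up from lipoproteins; Star carries it into the mitochondrion, Cyp11a1 cleaves its side chain, and further enzymes turn the product into androgens. The genes of sterol synthesis are known targets of the SREBP transcription factors, which act at promoters together with the CCAAT-binding factor NF-Y.

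Levels are log2 of the processed signal relative to the 75th percentile of the same array, so a difference of 1 is a 2-fold difference, and levels of different genes are not compared because they come from different probes. A gene was called at a limma adjusted p under 0.05 over all 23929 genes tested. The share of spots well above background was 63.9% to 75.6% in TOTM, 69.6% to 73.5% in DEHP and 65.7% to 79.8% in Control arrays. Outlier spots made up 1.24% to 1.27% of spots on Control arrays, against 0.21% to 0.33% in TOTM and 0.18% to 0.29% in DEHP arrays. Because outlier spots were left out, 320 genes had no Control value. Each group occupied 1 slide, with its own scan, and no slide held a second group; an effect of the slide and one of the compound cannot be told apart here. DEHP replicate 3 lay closer to an array of another group, MEHP replicate 4 (1.37 times the noise between repeated spots), than DEHP arrays lay to each other (median 2.13 times), and Control replicate 2 lay at 1.29 times from MEHP replicate 3, against a median of 3.05 times between Control arrays. DEHP replicate 4 also lay closer to other groups, at 1.63 times from Control replicate 3, 1.69 from TOTM replicate 3 and 1.76 from TOTM replicate 1, than the closest DEHP arrays lay to each other (2.05). Whether arrays were exchanged between groups was not tested. The arrays held testis RNA: Amh, the Sertoli cell hormone that regresses the Müllerian duct, lay at 5.84 to 6.22 on TOTM arrays and 5.87 to 6.13 on DEHP arrays, and Ddx4, a germ cell helicase, at 2.44 to 2.65 and 2.20 to 2.85 on the same arrays.

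The promoters of 3 sterol synthesis genes are shown because these genes had the largest TOTM minus DEHP differences of their pathway among genes with a RefSeq promoter entry. Each run is the 180 bases before the gene's start on the GRCr8 build, read along the gene's strand, with the letters CCAAT, or ATTGG where the motif lies on the other strand, in capitals. Tm7sf2, which encodes a sterol reductase, lies at chr1:212789542-212789721 on the minus strand, Msmo1, a sterol demethylase, at chr16:29746933-29747112 on the plus strand, and Ebp, a sterol isomerase, at chrX:16971282-16971461 on the plus strand.
Tm7sf2: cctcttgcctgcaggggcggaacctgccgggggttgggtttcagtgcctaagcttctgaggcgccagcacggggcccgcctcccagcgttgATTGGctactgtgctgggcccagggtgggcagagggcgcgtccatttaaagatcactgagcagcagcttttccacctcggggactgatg
Msmo1: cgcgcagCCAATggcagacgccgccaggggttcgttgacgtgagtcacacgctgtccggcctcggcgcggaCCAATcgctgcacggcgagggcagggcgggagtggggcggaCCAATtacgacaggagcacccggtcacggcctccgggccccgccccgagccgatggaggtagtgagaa
Ebp: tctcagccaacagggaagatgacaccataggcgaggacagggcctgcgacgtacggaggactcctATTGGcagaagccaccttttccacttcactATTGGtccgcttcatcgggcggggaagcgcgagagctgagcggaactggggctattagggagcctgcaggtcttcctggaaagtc
The motif CCAAT was searched on both strands of the 250 bases before the start. Of 21 tested genes of the mevalonate pathway and of the steps from squalene to cholesterol, 16 matched a promoter entry by symbol, and 13 of these (81.2%) held it, against 11385 of all 33469 promoters (34.0%) and 2 of 10 steroidogenesis genes. A listed gene counted if any of its promoter entries held the motif, while all promoters were counted entry by entry. The share of the listed genes and that of all promoters are therefore not like for like. The letters TCACNCCAC, a form of the sterol regulatory element, were in 0 of the 16 windows and in 326 of all promoters (0.974%). Pmvk, Fdft1 and Sqle were among those with no entry.

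Testes exposed to TOTM had 11 genes higher than testes exposed to DEHP, and no gene passed in the other direction. The 11 were Gsta2, Cyp11b1, Atp4b, Procr, Svs5, Star, Tm7sf2, Stc2, Ddc, Degs1l2 and Scd, and every one was at least 2-fold higher with all 4 TOTM arrays above all 4 DEHP arrays. Such a separation held for 1.99% of all genes with 8 values. The sizes depend on the setting: Degs1l2 and Scd fell below 2-fold in other settings, to log2 0.47 and 0.48 at the lowest. The lowest for the other genes was 1.04 (Stc2) or more. Large differences shrank too: at the lowest Gsta2 was at 1.75, Cyp11b1 at 1.48 and Atp4b at 1.22, against 2.52, 2.51 and 2.03 in the main fit. They make up 0.046% of the genes tested, and 0% passed as lower. In the same limma fit 430 genes lay higher and 603 lower at an unadjusted p under 0.05, together 1033 against 1196 expected if no gene differed. Over all genes the median difference was 0.02. Under quantile normalization 12 genes passed as higher and 2 as lower, and under normexp background correction with quantile normalization 26 and 8.

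The count depends on which arrays estimate the spread. When all 5 groups of the series shared the estimate, with MEHP (mono(2-ethylhexyl) phthalate) and EHO arrays included, limma called 0 genes in either direction, with 692 at an unadjusted p under 0.05 and adjusted p-values of the 11 from 0.29 to 0.97; the 11 differences were the same, and their SD over 3 MEHP samples (MEHP replicates 1 and 2 differed by 0.784 times the noise between repeated spots and were counted as 1 sample) was 0.57 to 1.92, against 0.13 to 0.47 in TOTM and 0.24 to 0.64 in DEHP. Leaving out DEHP replicate 3 left 5 of the 11 (Star, Degs1l2, Ddc, Tm7sf2, Stc2 and Svs5 were lost), leaving out Control replicate 2 gave 14 higher and 4 lower genes, and leaving out both left 4. The count was 6 without TOTM replicate 1, 7 without TOTM replicate 3 and 6 without TOTM replicate 4. All 11 differences stayed above 0 in each of these fits, but this outcome was fixed in advance. For each gene all 4 TOTM arrays lay above all 4 DEHP arrays, so leaving out arrays could not turn the sign.

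**Figure D1:**
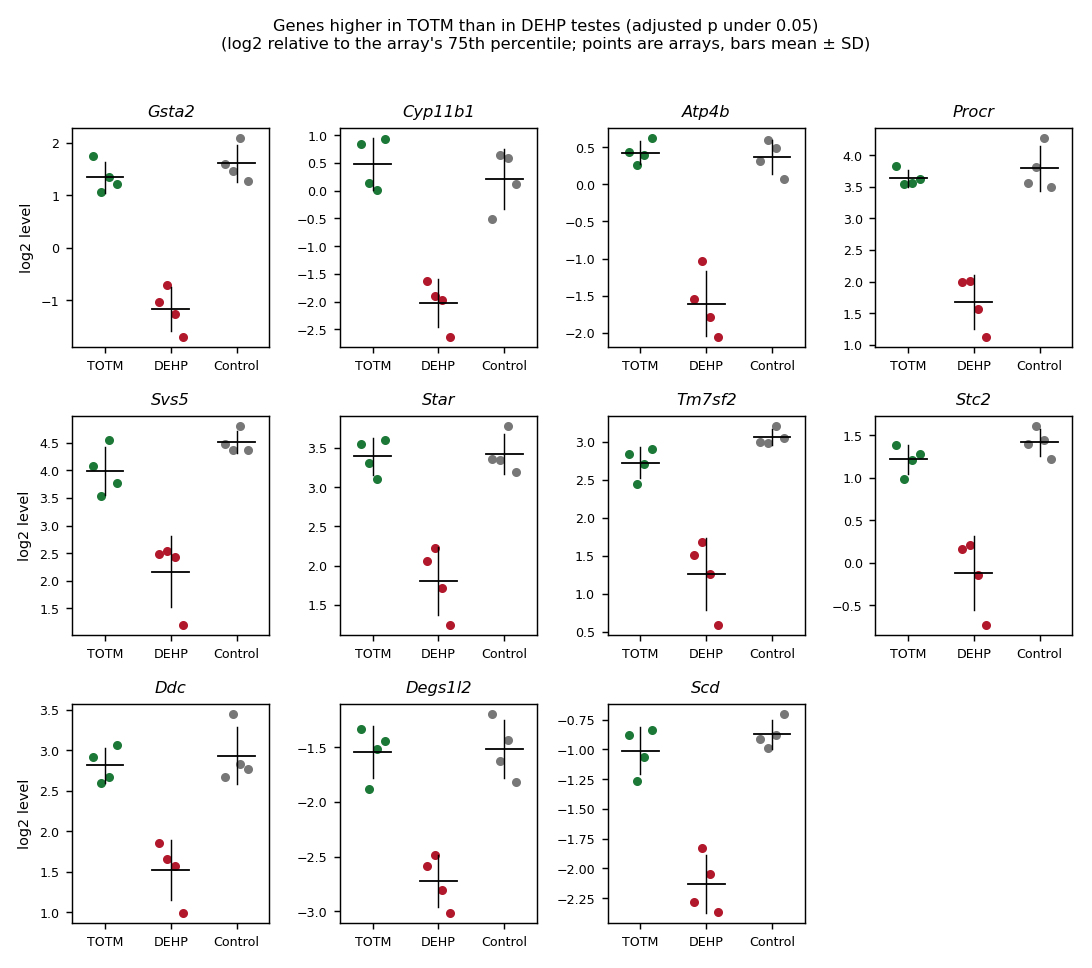
Log2 level relative to the array's 75th percentile (vertical axis) of the 11 genes that were higher in TOTM than in DEHP testes, with TOTM, DEHP and Control arrays from left to right. Points are arrays, horizontal lines are means and vertical lines are SDs; in each panel the 4 TOTM points lie above the 4 DEHP points, and for 10 of 11 genes the Control and TOTM ranges overlap.

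Star, the protein that moves cholesterol to the inner mitochondrial membrane, was the one member of the steroidogenesis list to pass. Its log2 level was 3.55, 3.31, 3.10 and 3.61 on TOTM arrays, against 2.06, 2.22, 1.71 and 1.25 on DEHP arrays. The lowest TOTM array lay well above the highest DEHP array, and the Control arrays, at 3.19 to 3.78, overlapped the TOTM arrays. The difference for Star was 1.58 ± 0.20 (SE; limma adjusted p = 0.00755); its probe lies at chr16:70640879-70640938 on rn4.

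Tm7sf2 had levels of 2.84, 2.44, 2.71 and 2.90 on TOTM arrays, against 1.51, 1.68, 1.26 and 0.59 on DEHP arrays. The gene was 2.76-fold higher in TOTM (log2 1.47 ± 0.20, limma adjusted p = 0.0108), and its Control arrays lay at 2.98 to 3.21, above every TOTM array. This was the exception among the 11, the others having Control and TOTM ranges that overlapped. Scd, a stearoyl-CoA desaturase that makes monounsaturated fatty acids and is named Scd1 in the files, lay at −0.88, −1.27, −1.06 and −0.84 on TOTM arrays, against −2.28, −1.83, −2.05 and −2.37 on DEHP arrays. Its difference of 1.12 ± 0.14 (adjusted p = 0.00755) ranked first by p in the fit over all 5 groups, where its adjusted p was 0.291.

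Cyp11b1 encodes the hydroxylase that completes glucocorticoid synthesis in the adrenal cortex. It lay at 0.84, 0.14, 0.02 and 0.93 on TOTM arrays, against −1.62, −1.89, −1.97 and −2.63 on DEHP arrays, a difference of 2.51 ± 0.29 (limma adjusted p = 0.00343). All 4 DEHP arrays were thus low, and Control arrays ranged from −0.51 to 0.64. Cyp11b1, Cyp11b2 and Cyp11b3 are closely related genes whose probes may share target RNA, so the identity of this signal is uncertain. The probes named Cyp11b2 and Cyp11b3 lay at 0.34 ± 0.19 and 0.30 ± 0.18 and did not pass. Other genes of the adrenal-type list were read next, and whether they mark adrenal tissue alone in these pools was not tested. Mrap, an accessory protein of the corticotropin receptor, was well above background on 4 of 4 arrays in each group. Its difference was 1.03 ± 0.21 (limma adjusted p = 0.133), with 1.63 to 2.13 on TOTM arrays and 0.34 to 1.34 on DEHP arrays. The receptor Mc2r was well above background on 1 of 4 TOTM, 0 of 4 DEHP and 2 of 4 Control arrays, and Cyp21a1, the adrenal steroid hydroxylase, on 0, 1 and 1. Both were left out by the filter, so of 7 adrenal-type genes 5 were tested, 1 passed as higher, and the median was 0.34. The mean of the 5 ran from −0.81 to −0.45 on TOTM arrays and from −1.94 to −1.25 on DEHP arrays. Cyp11b1 is itself a member, and the part of the other members in its difference was not tested.

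Gsta2, a glutathione transferase of the alpha class, which joins glutathione to reactive compounds, showed the largest difference of the 11. Its levels were 1.74, 1.06, 1.35 and 1.22 on TOTM arrays, against −1.02, −0.70, −1.27 and −1.70 on DEHP arrays. The groups lay far apart, and TOTM was 5.72-fold higher (log2 2.52 ± 0.22, limma adjusted p = 0.000551). A second, dimmer probe of Gsta2 gave a log2 difference of 4.04, so the size depends on the probe. Alpha-class transferases are a family of close copies, so some signal may come from relatives: Gsta3 lay at 0.53 ± 0.15 (adjusted p = 0.489) and Gsta1 at 0.45 ± 0.15 (adjusted p = 0.839), neither of them passing, and the files give these 2 probes the older names Yc2 and Gsta3.

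Procr, the endothelial receptor of protein C, lay at 3.83, 3.54, 3.56 and 3.62 on TOTM arrays, against 2.00, 2.01, 1.57 and 1.12 on DEHP arrays. Its difference was 1.96 ± 0.21 (limma adjusted p = 0.00158), and a second probe gave 2.03. Of the endothelial markers 8 of 11 lay above 0, none passed, the median was 0.08, and the mean of the list was −0.35 to −0.23 on TOTM arrays and −0.47 to −0.18 on DEHP arrays.

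Atp4b, the beta subunit of the gastric proton pump, lay at 0.43, 0.25, 0.40 and 0.63 on TOTM arrays, against −1.54, −1.04, −1.79 and −2.05 on DEHP arrays (2.03 ± 0.19, limma adjusted p = 0.000586). Stc2, the secreted glycoprotein stanniocalcin, lay at 1.39, 0.98, 1.21 and 1.28 on TOTM arrays, against 0.17, 0.21, −0.14 and −0.73 on DEHP arrays (1.34 ± 0.18, adjusted p = 0.0139). In both genes the TOTM arrays were tightly grouped and the DEHP arrays spread more widely. Ddc, the decarboxylase that makes dopamine and serotonin from their amino acid precursors, had 2.92, 2.60, 2.67 and 3.06 on TOTM arrays, against 1.85, 1.66, 1.57 and 0.99 on DEHP arrays (1.29 ± 0.20, adjusted p = 0.0400). Svs5, a seminal vesicle secretory protein, had 4.07, 3.54, 4.55 and 3.77 on TOTM arrays, against 2.48, 2.54, 2.43 and 1.20 on DEHP arrays (1.82 ± 0.28, adjusted p = 0.0350). These 2 had the highest adjusted p-values of the 11. Of 28 other settings, Ddc passed in 10, Svs5 in 11, Degs1l2 in 15, Stc2 in 18 and Tm7sf2 in 20. Scd passed in 23 and Star in 24, and Gsta2, Cyp11b1, Atp4b and Procr in 26 each. Degs1l2, named RGD1564463 in the files, had −1.34, −1.89, −1.52 and −1.44 on TOTM arrays, against −2.59, −2.48, −2.81 and −3.02 on DEHP arrays (1.18 ± 0.17, adjusted p = 0.0153).

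DEHP replicate 4 had the lowest DEHP level for 11 of the 11 genes. The same count over all genes was not made, so a trait of the array and one of these genes cannot be told apart. Without that array 9 of the 11 still passed (Degs1l2 and Ddc were lost). Relative to Control, the median gene lay at −0.12 in both TOTM and DEHP testes, which share the Control arrays. Beside that shift the 11 genes lay between −0.53 (Svs5) and 0.27 (Cyp11b1) in TOTM minus Control, and between −2.78 (Gsta2) and −1.21 (Degs1l2) in DEHP minus Control. In the authors' deposited table, which lists probes at p-values up to 0.00999 against control, 0 of the 11 probes were listed for TOTM and 11 of 11 for DEHP, with signed fold changes from −1.96 for Degs1l2 to −5.77 for Gsta2. That table listed 3298 probes for TOTM (1498 lower) and 1004 for DEHP (501 lower), on an array of 41012 probes. It belongs to the same series of arrays from which the 11 genes were called, so it is not independent of the calls.

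The genes of cholesterol synthesis had positive TOTM minus DEHP differences along the whole pathway, except that Ggps1 turned to −0.021 under normexp background correction with quantile normalization, and Tm7sf2 alone passed the test over all genes. In the mevalonate pathway, from acetyl-CoA to the isoprenoid diphosphates, 9 of 9 tested genes had a difference above 0, with a median of 0.39 and 0 passing. From squalene to cholesterol 12 of 12 lay above 0, with a median of 0.45, 1 passing as higher and 11 not passing. Over all genes tested, 13281 of 23929 lay above 0. All 4 TOTM arrays lay above all 4 DEHP arrays for 7 of the 9 genes and 9 of the 12, against 1.99% of all genes with 8 values; the genes of a pathway share arrays and vary together, so these counts are not independent.

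**Figure D2:**
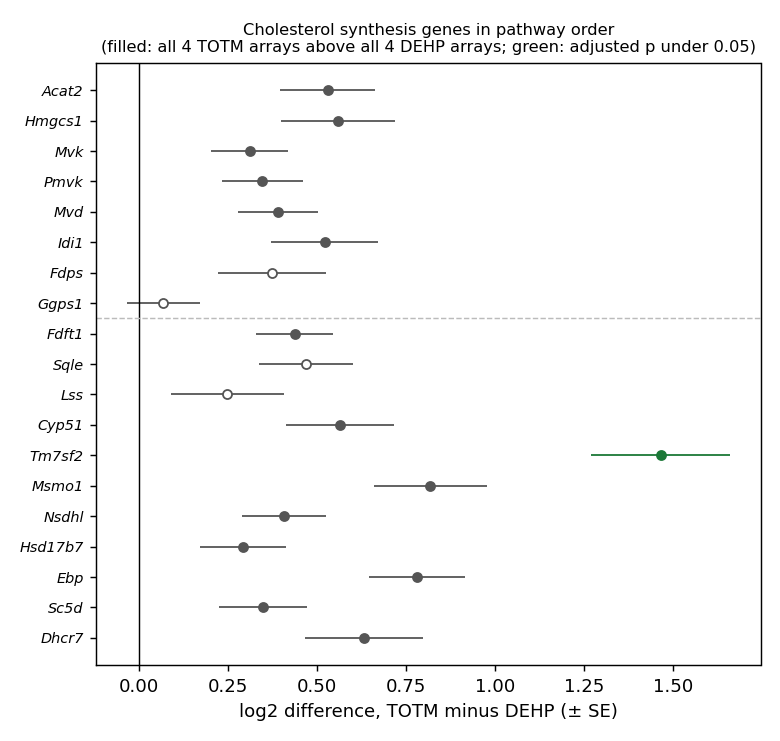
Log2 difference, TOTM minus DEHP, of 19 cholesterol synthesis genes in pathway order from top to bottom, with the mevalonate pathway above the dashed line. Points are fitted differences and bars are SEs; filled points mark genes whose 4 TOTM arrays all lay above their 4 DEHP arrays, and the green point is Tm7sf2 (1.47), the gene that passed, while Ggps1 (0.07, or −0.021 under normexp with quantile normalization) lies nearest to 0.

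At the head of the pathway Acat2, which joins acetyl-CoA units, was at 0.53 ± 0.13, and Hmgcs1, the HMG-CoA synthase, at 0.56 ± 0.16; neither passed. A second probe of Acat2 lay at 0.02, so its difference rests on 1 probe, and second probes of Hmgcs1, Idi1 and Fdps lay at 0.38, 0.94 and 0.42. The kinases Mvk and Pmvk lay at 0.31 ± 0.11 and 0.35 ± 0.11, the decarboxylase Mvd at 0.39 ± 0.11, the isomerase Idi1 at 0.52 ± 0.15 and the farnesyl diphosphate synthase Fdps at 0.37 ± 0.15. Ggps1, which leads away from sterols to geranylgeranyl diphosphate, was at 0.07 ± 0.10, with a 95% interval of −0.15 to 0.29. Averaged over the 8 genes with values on all 12 arrays, TOTM arrays lay at 2.31, 2.09, 2.23 and 2.38 and DEHP arrays at 1.92, 2.00, 1.73 and 1.74. The groups did not overlap, and Control arrays lay at 2.30 to 2.53.

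Beyond squalene, Ebp came closest to passing after Tm7sf2, at 3.53, 3.32, 3.63 and 3.59 on TOTM arrays and 2.95, 2.95, 2.63 and 2.41 on DEHP arrays (0.78 ± 0.14, limma adjusted p = 0.0755). Msmo1 was at 6.27, 5.76, 6.01 and 6.20 on TOTM arrays and 5.32, 5.55, 5.05 and 5.05 on DEHP arrays (0.82 ± 0.16, adjusted p = 0.185); its spot was marked as an outlier on every Control array. For both genes each TOTM array lay above each DEHP array. Dhcr7, which makes cholesterol from its last precursor in one branch, was at 0.63 ± 0.17, Cyp51, which demethylates lanosterol, at 0.56 ± 0.15, and Sqle, the epoxidase that opens this part of the pathway, at 0.47 ± 0.13. Fdft1, the squalene synthase, lay at 0.44 ± 0.11, Nsdhl at 0.41 ± 0.12, Sc5d at 0.35 ± 0.12 and Hsd17b7 at 0.29 ± 0.12. Lss, the lanosterol synthase, lay at 0.25 ± 0.16.

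Genes of sterol uptake and sensing lay to both sides of 0. Of 15 members 13 were tested, 6 lay above 0 and 7 below, none passed, and the median was −0.02 while the mean was 0.05. Scarb1, a receptor through which cells draw cholesterol out of high-density lipoprotein, had the largest difference of the list, with levels of 4.86, 4.72, 5.02 and 5.07 on TOTM arrays, against 3.97, 4.19, 4.01 and 3.54 on DEHP arrays (0.99 ± 0.17, limma adjusted p = 0.0713). Its groups did not overlap, and a second probe gave 1.24. Insig1, the sterol sensor that retains SREBP in the endoplasmic reticulum, was at 0.44 ± 0.19, with its other probes at 0.74 to 0.85. Srebf1, which encodes an SREBP factor, was at −0.57 ± 0.37 with another probe at 0.13, so its direction is unsettled.

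Along the androgen pathway the values varied from step to step. Of 14 steroidogenesis genes tested, of 16 members, 11 lay above 0, 1 passed as higher, 13 did not pass, and the median was 0.35. After Star, the largest differences were those of Cyp17a1 and Cyp11a1. Cyp11a1, the side-chain cleavage enzyme, lay at 3.78, 3.53, 3.93 and 4.08 on TOTM arrays, against 2.52, 2.87, 3.11 and 2.68 on DEHP arrays (1.03 ± 0.17, limma adjusted p = 0.0645). Fdx1, the ferredoxin that hands it electrons, lay at 5.49, 5.08, 5.32 and 5.46 on TOTM arrays, against 4.68, 4.93, 4.46 and 4.02 on DEHP arrays (0.82 ± 0.20, adjusted p = 0.319). In each the 4 TOTM arrays lay above the 4 DEHP arrays, and neither passed. Fewer Leydig cells and less RNA per cell cannot be told apart in these whole-testis pools.

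**Figure D3:**
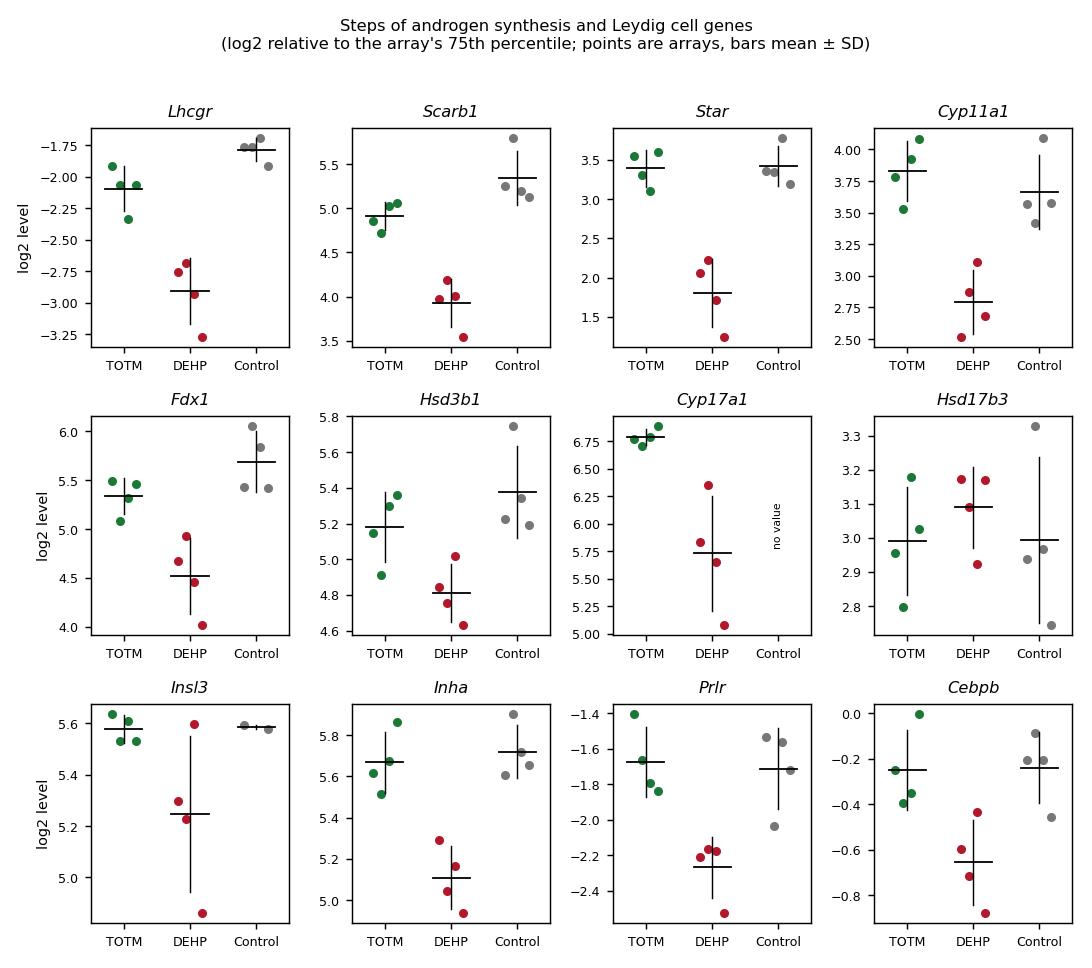
Log2 level relative to the array's 75th percentile (vertical axis) of 12 genes of androgen synthesis and of Leydig cells, with TOTM, DEHP and Control arrays from left to right. Points are arrays, horizontal lines are means and vertical lines are SDs; TOTM and DEHP points are separate for Star, Scarb1, Cyp11a1, Fdx1 and Cyp17a1 and overlap for Hsd3b1, Hsd17b3 and Insl3, and Cyp17a1 has no Control value.

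The later enzymes were less alike. Cyp17a1, which forms the androgen precursors, lay at 6.77, 6.71, 6.79 and 6.89 on TOTM arrays, against 5.84, 6.35, 5.66 and 5.08 on DEHP arrays (1.06 ± 0.22, limma adjusted p = 0.236). Its TOTM arrays were close together and its DEHP arrays were not. Its spot was an outlier on all Control arrays, and in the authors' deposited table its signed fold change against control was 1.45 for TOTM and −1.46 for DEHP. Those ratios need a Control level, which was not available here, and how they treated the outlier spots was not checked. Hsd3b1, the dehydrogenase between Cyp11a1 and Cyp17a1, was at 0.37 ± 0.15 with overlapping arrays (95% interval 0.05 to 0.68, adjusted p = 0.990). Hsd17b3, which completes testosterone, showed no detectable difference: it lay at 2.99 ± 0.16 in TOTM and 3.09 ± 0.12 in DEHP testes (SD, n = 4 each), and the 95% interval of the difference ran from −0.39 to 0.19. That interval excludes a difference of the size seen in Star. The electron donors Por and Fdxr lay at 0.43 ± 0.21 and 0.28 ± 0.12.

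Of the regulators, Lhcgr, the luteinising hormone receptor, lay at −1.92, −2.06, −2.34 and −2.06 on TOTM arrays, against −2.75, −2.68, −2.93 and −3.27 on DEHP arrays (0.81 ± 0.14, limma adjusted p = 0.0713). Its groups did not overlap, but it was well above background on 2 of 4 DEHP arrays, and a second probe gave 0.51. Nr5a1, the nuclear receptor that drives steroid enzyme genes, was at 0.34 ± 0.23 with an interval of −0.15 to 0.82, and Nr4a1, an inducible nuclear receptor, at −0.30 ± 0.20.

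Markers of foetal Leydig cells other than enzymes were tested in 11 of 11 cases: 10 lay above 0, none passed, and the median was 0.26. Inha, an inhibin subunit, lay at 5.62, 5.51, 5.68 and 5.86 on TOTM arrays, against 5.29, 5.04, 5.17 and 4.94 on DEHP arrays (0.56 ± 0.12, limma adjusted p = 0.195), and Prlr, the prolactin receptor, had 0.59 ± 0.14 (adjusted p = 0.320). Both had TOTM arrays above all DEHP arrays, as did the transcription factor Cebpb at 0.41 ± 0.13. Insl3, the hormone of testis descent, lay at 5.64, 5.53, 5.61 and 5.53 on TOTM arrays, against 5.30, 5.23, 5.60 and 4.86 on DEHP arrays (0.33 ± 0.14). Those arrays overlapped through DEHP replicate 3. Nr0b1, a repressor of steroid genes, was at 0.31 ± 0.14, the adhesion molecule Vcam1 at 0.25 ± 0.17 and Pdgfra, a receptor also found on interstitial progenitors, at −0.24 ± 0.20. Over the genes with all 12 values the list averaged 0.72 ± 0.10 in TOTM, 0.48 ± 0.09 in DEHP and 0.84 ± 0.08 in Control testes (SD, n = 4 each). The part of this difference in the values of the steroid genes was not tested.

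Scd was the member of the fatty acid lists that passed. Of 12 fatty acid synthesis genes tested, 9 lay above 0, 1 passed as higher, and the median was 0.09. Acss2, which makes acetyl-CoA from acetate, lay at 0.11, −0.25, −0.09 and −0.19 on TOTM arrays, against −0.84, −0.70, −0.79 and −0.92 on DEHP arrays (0.71 ± 0.11, limma adjusted p = 0.0513). Acss2 was the gene nearest to the threshold without passing it, as Ddc at 0.0400 was the nearest that passed. The polyunsaturated fatty acid desaturases Fads1 and Fads2 were at 0.50 ± 0.14 and 0.42 ± 0.13. Genes of fatty acid oxidation and targets of PPAR alpha, a receptor that phthalates activate in rodent liver, had 11 of 17 above 0 with a median of 0.06, and none passed; Acot2, a mitochondrial thioesterase, was at −0.26 ± 0.17. In the glutathione, oxidative stress and xenobiotic list 13 of 20 lay above 0, 1 passed (Gsta2), and the median was 0.12.

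On the lower side no gene passed, and 11 of the 12 genes with a symbol and the smallest p-values are given as such. They were Tcf4, Zfp36l2, Pkp4, Tbx3, Wac, Mmp14, Kat6a, Slit2, Usp7, Nr2f2 and Mylk, with limma adjusted p-values from 0.11 to 0.20. Tcf4, a helix-loop-helix transcription factor, lay at 2.70, 2.04, 2.88 and 2.30 on TOTM arrays, against 3.78, 3.54, 3.26 and 3.28 on DEHP arrays (−0.98 ± 0.18, adjusted p = 0.109). Nr2f2, an orphan nuclear receptor of interstitial cells, lay at 1.72, 1.14, 1.66 and 1.52 on TOTM arrays, against 2.24, 2.09, 2.17 and 2.12 on DEHP arrays (−0.64 ± 0.14, adjusted p = 0.195). Both had every TOTM array below every DEHP array, which held for 2.78% of all genes.

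Tbx3, a T-box factor, was at −0.33, −0.23, −0.32 and −0.52 on TOTM arrays and 0.17, 0.21, 0.11 and 0.23 on DEHP arrays (−0.53 ± 0.10, limma adjusted p = 0.113). Mmp14, the membrane protease that activates gelatinase and cleaves collagen, was at 4.05, 3.72, 3.93 and 3.73 on TOTM arrays and 4.33, 4.47, 4.59 and 4.50 on DEHP arrays (−0.61 ± 0.12, adjusted p = 0.120). The groups were separate in both. The acetyltransferase Kat6a lay at −0.85 ± 0.17, the adaptor Wac at −0.83 ± 0.16, the junction protein Pkp4 at −0.73 ± 0.14, the deubiquitinase Usp7 at −0.73 ± 0.15, the RNA-decay factor Zfp36l2 at −0.66 ± 0.12, the guidance ligand Slit2 at −0.65 ± 0.13 and the myosin kinase Mylk at −0.55 ± 0.12. Of the 11 genes, 6 had other probes, and every one of these gave a smaller difference. Pkp4 and Usp7 lay at −0.05 on theirs, Wac at −0.05 and −0.28, Zfp36l2 at −0.27 and Mylk at −0.17, so the size of these differences depends on the probe. Slit2 lay at 0.08 and −0.27 on its other probes, and its direction is unsettled. For 11 of the 11 every TOTM array also lay below every Control array, and for 9 of 11 the DEHP and Control ranges overlapped. The share of all genes with either pattern was not counted. These genes were chosen for TOTM values below DEHP, so the counts are not read as a trait of the 11. In the authors' deposited table all of them (11 of 11) were listed as lower with TOTM than control, with signed fold changes of −1.50 to −2.07, and 2 of 11 as lower with DEHP. That table listed 1498 probes as lower for TOTM and 501 for DEHP. It belongs to the same series of arrays from which these genes were chosen, so it is not independent of that choice.

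**Figure D4:**
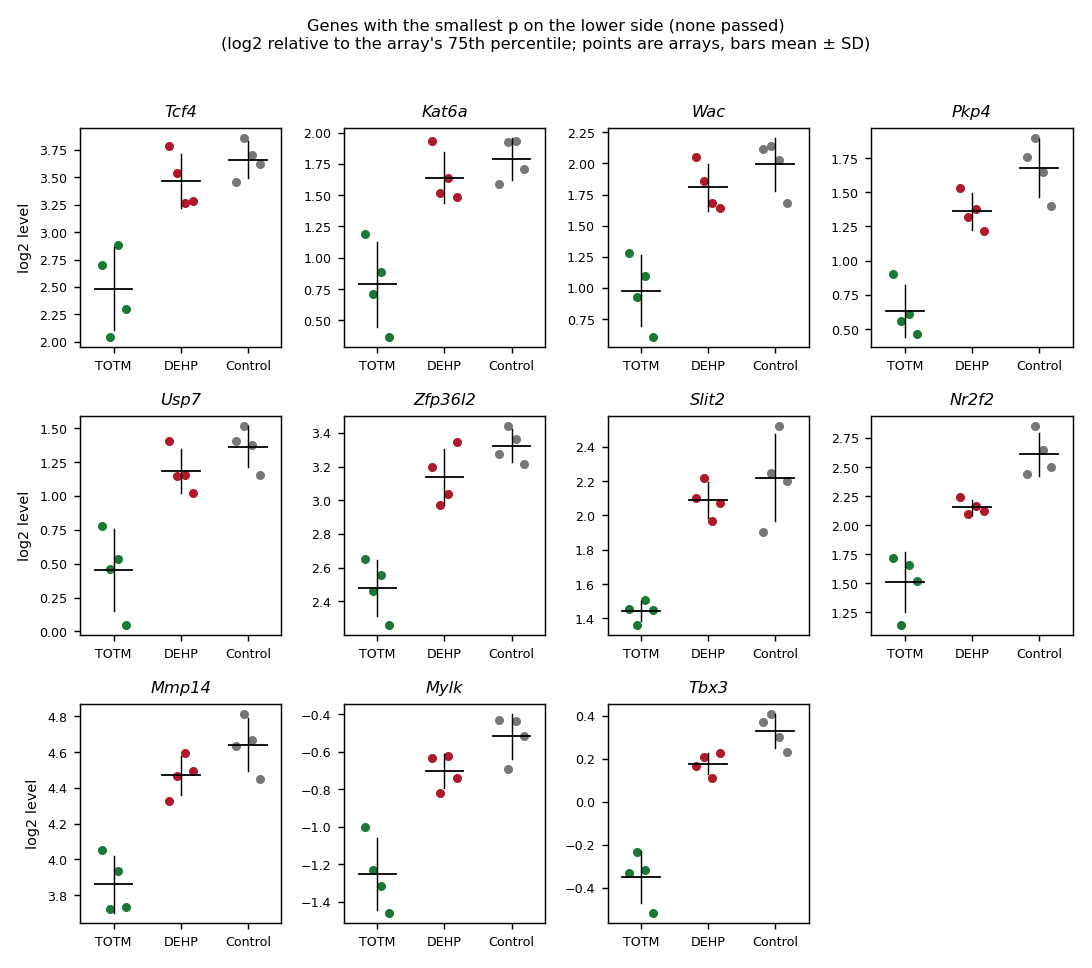
Log2 level relative to the array's 75th percentile (vertical axis) of 11 of the 12 genes with the smallest p-values on the lower side, none of which passed, with TOTM, DEHP and Control arrays from left to right. Points are arrays, horizontal lines are means and vertical lines are SDs; in each panel the TOTM points lie below the DEHP and Control points.

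The other cell types and programs of the testis gave no calls, and their counts are over the members tested. Sertoli cell markers had 13 of 20 above 0 (median 0.05), with the cystatin Cst12 at 0.39 ± 0.19 and Hsd17b1 at 0.32 ± 0.13. The growth factor Gdnf was at 0.41 ± 0.52 with another probe at −0.02, so its direction is unsettled. Among gonocyte markers 10 of 15 lay above 0 (median 0.04), with Dnmt3l, a cofactor of germ cell DNA methylation, at 0.82 ± 0.34 and Tdrd1 at 0.39 ± 0.18. Amh itself differed by 0.12, with an interval of −0.17 to 0.41, and Ddx4 by 0.03, with an interval of −0.27 to 0.33. Peritubular and interstitial markers had 5 of 13 above 0 (median −0.04), and after Nr2f2 Tcf21 lay at −0.29 ± 0.15. In the list of extracellular matrix and proteases 5 of 18 lay above 0 (median −0.16), with the collagen gene Col1a2 at −0.57 ± 0.14 after Mmp14 and at −0.21 on a second probe.

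Macrophage and leukocyte markers had 5 of 11 above 0 (median −0.01), with the invariant chain Cd74 at 0.48 ± 0.19. Mesonephric duct and epididymal markers had 4 of 11 above 0 (median −0.06, mean 0.00079), with the claudin Cldn7 at 0.47 ± 0.17. Whether these genes mark carried-over duct alone was not tested. Erythroid markers had 2 of 7 above 0 (median −0.21), and the mean of that list ran from 1.26 to 1.76 on TOTM arrays and from 1.003 to 2.22 on DEHP arrays, a wider range in DEHP that overlapped the whole of the TOTM range. The haemoglobin gene Hbe1 lay at −0.35 ± 0.31. Endothelial Vwf was at 0.28 ± 0.19, and at 0.13 on a second probe.

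Immediate early genes had 5 of 17 above 0 (median −0.20), with Ccn1, a secreted matrix protein, at 0.34, 1.05, 0.62 and 0.70 on TOTM arrays and 1.84, 1.24, 0.91 and 1.96 on DEHP arrays (−0.81 ± 0.21, limma adjusted p = 0.422). Its arrays overlapped, Control arrays lay at 0.48 to 0.75, and a second probe gave −0.39. Egr1 was at −0.54 ± 0.37, with DEHP replicate 4 at 1.84 and the other DEHP arrays at −0.25 to 0.04. The mean of the immediate early list was 0.35, 0.20, 0.35 and 0.82 on DEHP arrays and 0.10, 0.17, 0.22 and 0.41 on TOTM arrays. The groups overlapped, and replicate 4 was highest in both. Among RNA-binding and splicing factors 1 of 17 lay above 0 (median −0.14), with the largest difference in Hnrnpu at −0.27 ± 0.13, and among cell cycle genes 3 of 20 (median −0.07), with Ccnd2 at −0.39 ± 0.15. The endoplasmic reticulum stress list had 5 of 12 above 0 (median −0.05), with the folding enzymes Pdia4 at −0.53 ± 0.29 and Hsp90b1 at −0.34 ± 0.13 (−0.66 on a second probe), and the retinoid list 10 of 14 (median 0.07), with Aldh1a2 at −0.32 ± 0.30. No list could be called different from all genes by such counts, since members of a list vary together on an array.

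**Figure D5:**
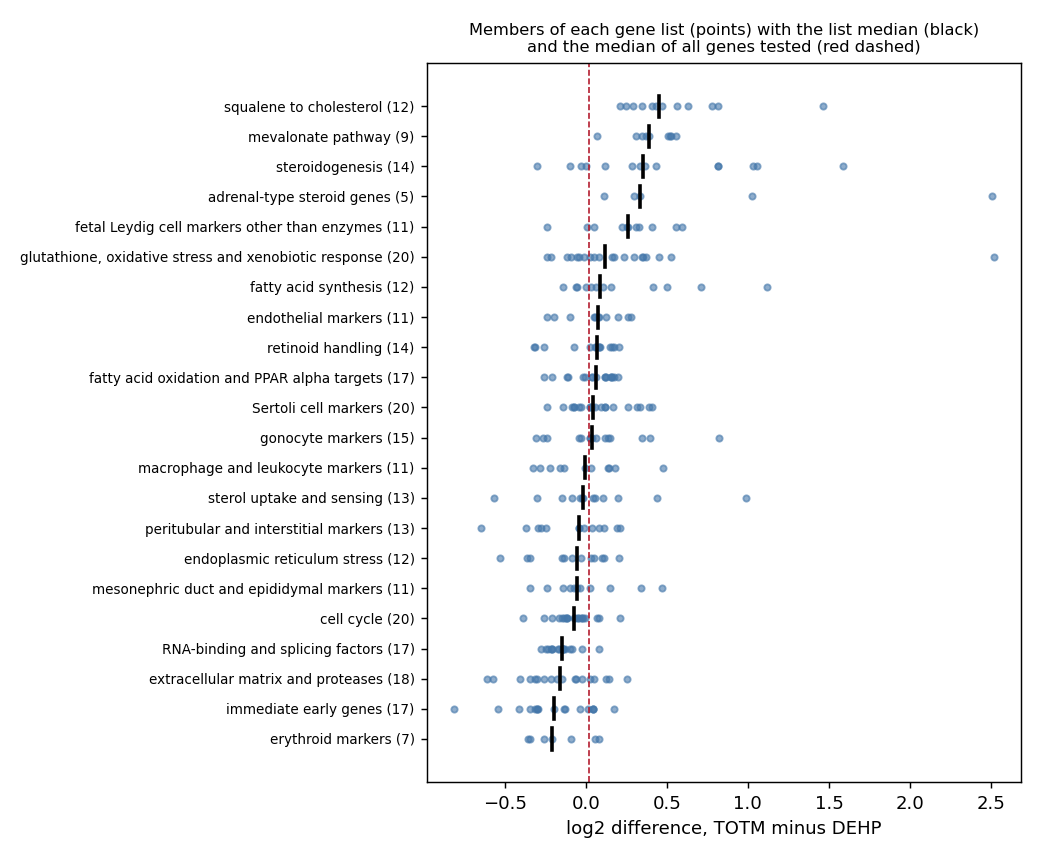
Log2 difference, TOTM minus DEHP (horizontal axis), of every tested member of the 22 gene lists, with the number tested in parentheses. Points are genes, black bars are list medians and the red dashed line is the median of all genes tested (0.02); the medians run from 0.45 for squalene to cholesterol to −0.21 for erythroid markers.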

How the data were processed

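The 12 arrays used were 1-colour Agilent arrays of 45018 spots. Per the file headers, the deposited spot intensity (processed signal) was made with Agilent Feature Extraction 9.5.3.1, with spatial and multiplicative detrending switched on; probe coordinates are on rn4. The authors' deposited table gives a signed fold change (a score in which values below 0 are minus the inverse ratio) and a p-value per probe; its test is not given in the sources used here.

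Outlier spots and the 1639 control spots were left out, and spots of a probe were averaged. Log2 intensities were set relative to each array's 75th percentile. A probe was kept where all arrays of 1 or more groups had it well above background (27813 probes), and the brightest probe of each gene was tested (23929 genes, 12061 with a symbol from RefSeq). TOTM, DEHP and Control arrays were fitted together with limma 3.58.1 (R 4.3.3; lmFit and eBayes), and p-values were adjusted by Benjamini and Hochberg's method. The 4 arrays per group limit the precision. The procedure was tested on simulated data. TOTM and DEHP were the 1 pair of compounds compared.

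Members and lists were chosen with earlier results of these data known. The genes named were the members of the sterol, steroid and Leydig cell lists, the called genes (or, with under 5 called, the 12 smallest p-values in that direction), and up to 4 members with the largest differences in each other list. Some of these genes are not reported here. Promoters came from RefSeq, build GRCr8. Alternatives covered scaling, background correction, filters, probe choice, the variance model, the arrays fitted and a replicate block; same-numbered TOTM and DEHP arrays had deviations correlated at 0.14, −0.05, −0.11 and 0.25, so the numbers were not taken as pairs.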

Additional observations from a re-analysis of the deposited data

Results flagged for a closer look

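In groups of 4 arrays, 1 array lay far from the other 3 for 11 values, of 258 gene groups and 66 list groups examined; chance gives about 1 in 20. Among TOTM arrays, Dhcr7 was at 2.59 on replicate 2 (2.84 to 2.88 on the others), Srebf1 at −0.0043 on replicate 1 (1.94 to 2.15), and the mean of macrophage and leukocyte markers at −0.46 on replicate 1 (−0.29 to −0.26).

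Among DEHP arrays, replicate 4 stood apart for Svs5 at 1.20 (2.43 to 2.54), Prlr at −2.52 (−2.21 to −2.16) and Egr1 at 1.84 (−0.25 to 0.04). Replicate 3 stood apart for Fdxr at 4.50 (4.16 to 4.19).

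Among Control arrays, Fdxr was at 4.65 on replicate 3 (4.35 to 4.38). Replicate 2 stood apart for Nr4a1 at 2.22 (1.63 to 1.71), the mean of immediate early genes at 0.58 (0.33 to 0.35) and the mean of RNA-binding and splicing factors at 3.82 (3.34 to 3.41).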

How the results depend on the processing

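Against 11 genes higher and 0 lower in TOTM, 6 were higher with median scaling and 6 with no filter on dim probes. Quantile normalization gave 12 and 2 lower, and normexp background correction with quantile normalization 26 and 8 lower. Requiring detection on all 12 arrays gave 15 and 1 lower, a trended robust variance 19 and 7, and array weights 22 and 16. TOTM and DEHP arrays alone gave 8 higher, 7 of them among the 11, and 1 lower (Ddc, Tm7sf2, Stc2 and Svs5 were lost). With all 5 groups the count was 0 and 0. Leaving out 1 array gave 5 (DEHP replicate 3) to 14 (Control replicate 2) higher genes and 0 to 4 lower ones. With the replicate block, 11 were higher, 10 of them among the 11, and 1 lower; each TOTM array correlated best with its own number for replicates 1 and 4 only. Of 3 alternatives chosen after seeing the data, leaving out DEHP replicate 3 and Control replicate 2 together gave 4 and 0, adding MEHP arrays 0 and 0 (995 at an unadjusted p under 0.05), and adding EHO arrays 8 and 0. The 11 differences stayed above 0 in all 28 alternatives. Where an alternative only left out arrays, added groups or changed the variance model, that sign was fixed in advance and is no support. Ggps1 turned to −0.021 under normexp with quantile normalization. Some genes short of the threshold in the main fit passed in other settings. Of the 28 alternatives, Cyp11a1 passed in 7, Scarb1 and Acss2 in 6 each and Ebp in 4. On the lower side Tcf4, Pkp4 and Tbx3 passed in 3 each. The cause of these shifts was not tested. Another scaling placed the median of all genes between −0.02 and 0.06. Probes near background, Lhcgr and Mc2r among them, limit what can be said of those genes.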
